A study of Capra hircus with 2 samples.

Results

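The miR-15 and miR-16 family was followed in the mammary gland of the dairy goat through its 6 members, miR-15a, miR-15b, miR-16, miR-195, miR-424 and miR-497. The sequenced molecules were deposited as tags, each a distinct sequence with its number of reads, and the tags carry no names. A member was therefore taken as all tags that hold 16 bases of it, which were nt 7 to 22 (the end of its published primer) for miR-15b and nt 2 to 17 for the others. The 16 bases were found in the data. Among tags with the family seed at nt 2 to 8, the 6 largest groups with the same nt 2 to 17 were taken. Each was given the family name whose read counts listed in the study were nearest in both libraries. The 6 groups received 6 different names. A nearest name always exists, so the names rest on this match and are not tested by it. The nearest counts were within 1.11-fold for each group. The next member was 38.9-fold off for miR-16, but only 1.25-fold for miR-424 and 1.31-fold for miR-497. By this rule 914 of the 659118 distinct tags belonged to the family, and 0 tags belonged to more than 1 member.

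MicroRNAs are small RNAs that guide Argonaute proteins to messenger RNAs, chiefly through the bases of the seed near their 5′ end. Members of one family share the seed and so share many targets, and the miR-15 and miR-16 family is known for holding back the cell cycle, with cyclins and BCL2, which blocks cell death, among its best known targets. The members are made from several small clusters, and each hairpin precursor gives a pair of strands, of which the 5′ strand described here is usually the more abundant one.

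The most abundant tag of each member (by the summed level of both libraries) is shown to make the shared seed visible, with nt 2 to 8 in capitals.
miR-15a: tAGCAGCAcataatggtttgt
miR-15b: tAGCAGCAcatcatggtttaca
miR-16: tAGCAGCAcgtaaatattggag
miR-195: tAGCAGCAcagaaatgttggt
miR-424: cAGCAGCAattcatgttttga
miR-497: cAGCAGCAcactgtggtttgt
None of these tags, that of miR-195 included, was compared with a reference mature sequence, so each name and the values under it rest on the match of read counts. The seed was identical in the 6 members, and they differed behind it. Positions are counted from 1 at the 5′ end of the first-named sequence, whose base is given first. In nt 2 to 17, miR-15a and miR-15b differed by 1 base, A12C, and they differed by 3 bases in nt 1 to 21 (A12C, G20A and T21C). miR-16 and miR-195 differed by 3 bases in nt 2 to 17 and 4 in nt 1 to 21 (G10A, T11G, A16G and A21T). The most distant pairs in nt 2 to 17, miR-16 with miR-497 and miR-195 with miR-424, differed by 7 bases.

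In the RefSeq annotation of the goat, the nearest microRNA gene to MIR15A was MIR16A and the nearest to MIR15B was MIR16B, and the latter pair lay inside SMC4, a gene for a condensin subunit. MIR195 and MIR497 were each other's nearest microRNA gene, and the nearest to MIR424 was MIR542. The mature strands of MIR16A and MIR16B were not compared here, so the reads of miR-16 were not divided between the miR-15a and miR-15b clusters.

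Mammary gland tissue came from Laoshan dairy goats of 4 years and was taken by surgery, 90 days postpartum for peak lactation and 210 days postpartum for late lactation. Each stage had 1 library of small RNA, made from the pooled RNA of 5 goats, so that no replicate library exists and no test across goats was possible. The peak library held 19044002 clean reads and the late library 7385833. Levels are given as reads per 1000000 clean reads (RPM), and 1 read was worth 0.0525 RPM in the peak library and 0.135 RPM in the late library. Frozen gland tissue was sampled, not separated cells, and it was not checked against marker microRNAs here. In such tissue, fewer cells of a type and less RNA per cell cannot be told apart. The libraries also differed in their making, since 5′ adaptor contaminants made up 0.0494% of the high-quality reads of the peak library and 14.0% of those of the late library, and tags of 20 nt or less were 15.7% and 30.9% of the clean reads. The part of these differences in the results was not tested. The 95% intervals are exact (Clopper-Pearson for ratios and shares, Poisson for single levels) and cover the counting error of reads only. With 1 library per stage they hold no variation between goats or libraries. PCR copies of 1 molecule are counted as separate reads, so the intervals can be too narrow for molecules.

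The family as a whole had 86968 reads in the peak library and 47339 in the late library, which was 0.457% and 0.641% of the clean reads. Its summed level was 4567 RPM at peak and 6409 RPM in late lactation, a log2 ratio of late over peak of 0.49 (95% interval 0.47 to 0.51). The sum was mostly miR-16. The 5 other members together went from 285 RPM to 1243 RPM, a 4.36-fold ratio (log2 ratio 2.12, 2.07 to 2.17).

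Of the 6 members, 5 were at least 2-fold higher in late lactation, 0 were at least 2-fold lower, and miR-16 was within 2-fold. Among all 11602 groups of tags that shared nt 2 to 17 and reached 1 RPM in 1 library, 36.1% were at least 2-fold higher in late lactation and 31.2% at least 2-fold lower (4193 and 3622 groups). Scaled to totals without the 10 most abundant tags, more groups reached 1 RPM, and 9978 of 20421 were at least 2-fold higher and 5071 at least 2-fold lower. All 6 members reached 30 RPM in 1 library, and among the 1363 groups at that level 24.2% were at least 2-fold higher and 38.4% at least 2-fold lower. The median log2 ratio was 1.95 over the members, 0.04 over the groups from 1 RPM and -0.58 over those from 30 RPM. Large ratios were thus common between these libraries, in both directions.

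miR-16, the most abundant member, had 81537 reads (4282 RPM) at peak and 38161 reads (5167 RPM) in late lactation. Its log2 ratio was 0.27 (0.25 to 0.29), the smallest of the 6. The direction depended on which tags were counted, as its most abundant tag taken alone gave -0.04 (-0.07 to -0.02).

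miR-15a, which lies beside miR-16 in its cluster, had 2102 reads (110 RPM) at peak and 3035 reads (411 RPM) in late lactation. Its log2 ratio was 1.90 (1.82 to 1.98). The reads of miR-16, which were not divided between its genes, were 38.8 for each read of miR-15a at peak and 12.6 in late lactation. The ratio of the miR-16 made from this cluster alone is therefore not known. The cluster of miR-15a and miR-16, with all miR-16 reads in it, summed to 4392 RPM and 5578 RPM, with a log2 ratio of 0.34 (0.33 to 0.36).

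miR-15b was the member with the lowest level at peak and the highest ratio. It had 367 reads (19.3 RPM) at peak and 1163 reads (157 RPM) in late lactation, an 8.17-fold ratio (log2 ratio 3.03, 2.86 to 3.20). Its 16 bases end at nt 22 and so leave out its shorter tags. Counted by nt 2 to 17 like the other members, it had 612 reads (32.1 RPM) at peak and 2004 reads (271 RPM) in late lactation, and its log2 ratio was 3.08 (2.95 to 3.21), still the highest. By nt 2 to 17, the reads of miR-16 for each read of miR-15b went from 133 to 19.04, and those of miR-15a for each read of miR-15b from 3.43 to 1.51. The cluster of miR-15b and miR-16 summed to 4301 RPM and 5324 RPM (log2 ratio 0.31, 0.29 to 0.33).

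The cluster of miR-195 and miR-497 holds no miR-16, and both of its members were higher in the late library. miR-195 had 1337 reads (70.2 RPM) at peak and 2957 reads (400.4 RPM) at late lactation (log2 ratio 2.51, 2.42 to 2.61). miR-497 had 710 reads (37.3 RPM) at peak and 1111 reads (150 RPM) at late lactation (log2 ratio 2.01, 1.88 to 2.15). Their intervals did not overlap, and miR-195 had 1.88 reads for each read of miR-497 at peak and 2.66 in late lactation. The cluster summed to 107.5 RPM and 551 RPM, a 5.12-fold ratio (log2 ratio 2.36, 2.28 to 2.43).

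miR-424, the member with a cluster of its own here, had 915 reads at peak and 912 reads in late lactation, which was 48.0 RPM and 123 RPM because the late library was smaller. Its log2 ratio was 1.36 (1.23 to 1.50), the lowest of the 5 members past 2-fold.

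**Figure D1:**
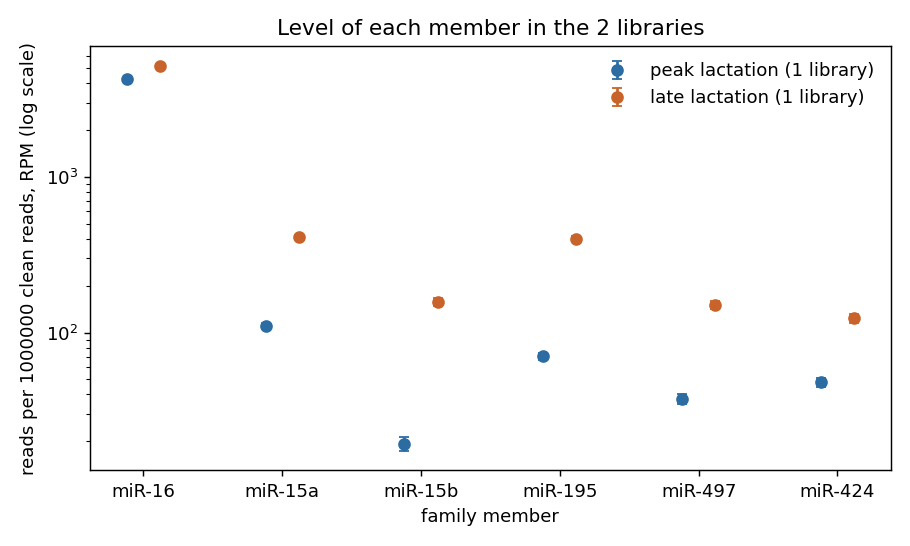
Level of each member in RPM (log axis) in the peak and late lactation libraries, 1 library each; bars are exact Poisson 95% intervals and are mostly smaller than the points. The late point lies above the peak point for all 6 members, by the least for miR-16 (4282 and 5167 RPM) and by the most for miR-15b (19.3 and 157 RPM).

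The order of the members also differed between the libraries. In peak lactation the order from high to low was miR-16, miR-15a, miR-195, miR-424, miR-497 and miR-15b, and with miR-15b counted by nt 2 to 17 its interval (29.6 to 34.8 RPM) overlapped that of miR-497 (34.6 to 40.1 RPM) and no other neighbours overlapped. In late lactation miR-15a (396 to 426 RPM) and miR-195 (386 to 415 RPM) overlapped. The place of miR-15b depended on how it was counted. By nt 7 to 22 it was at 149 to 167 RPM and overlapped miR-497 (142 to 160 RPM), and by nt 2 to 17 it was at 260 to 283 RPM, above miR-497. miR-424 was the lowest (116 to 132 RPM).

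**Figure D2:**
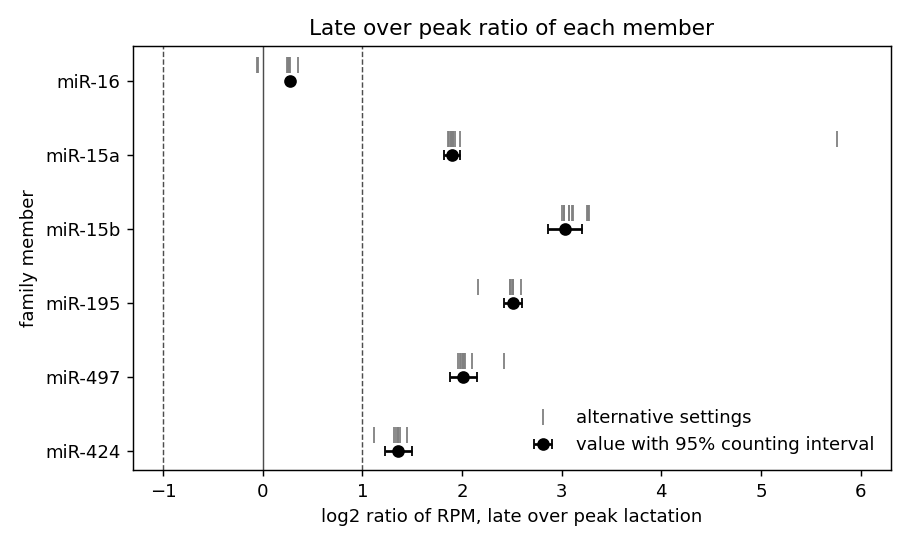
Log2 ratio of RPM, late over peak lactation, for each member; black points have 95% counting intervals, grey ticks are the other ways of scaling and counting, and dashed lines mark 2-fold. The ticks of 5 members stay right of the upper dashed line, those of miR-16 lie on both sides of 0, and the far tick of miR-15a (5.77) is its most abundant tag taken alone.

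Within the family, the share of miR-16 was 93.8% of the reads at peak and 80.6% in late lactation. miR-15a went from 2.42% to 6.41%, miR-195 from 1.54% to 6.25% and miR-15b from 0.422% to 2.46%. miR-497 went from 0.816% to 2.35% and miR-424 from 1.05% to 1.93%. These shares do not depend on the total of the library. By nt 2 to 17, miR-15b was 0.676% and 4.04% of all reads with the seed at nt 2 to 8.

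Counting every tag with the seed at nt 2 to 8, and not only the 6 members, gave 956 tags with 87774 reads at peak and 47974 in late lactation. They were 0.461% and 0.650% of the clean reads, a log2 ratio of 0.49. By the reads of both libraries together, the largest group outside the members held the start shared by miR-103 and miR-107 with 1 more base before it, which moves those letters into the seed position. It had 114 reads at peak and 407 in late lactation, 0.130% and 0.848% of the reads with the seed, and its log2 ratio was 3.20 (2.90 to 3.52). The same sequence without the extra base had 320003 and 119113 reads (log2 ratio -0.06, -0.07 to -0.05). The remaining groups included miR-16 with the substitution A14C, which was larger at peak with 448 reads and had 2 in late lactation, and with A13C, with 153 and 110 reads.

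The tags of one member did not all move alike. Of the tags with at least 50 reads in 1 library, 5 of 7 of miR-15a were at least 2-fold higher in late lactation and 1 was at least 2-fold lower. The counts were 15 higher and 3 lower of 23 for miR-16, 4 higher of 5 for miR-195 and 4 higher of 5 for miR-497. They were 3 higher of 3 for miR-424 and 1 of 1 for miR-15b, with 0 lower in miR-195, miR-497, miR-424 and miR-15b. The count of miR-15b cannot be compared with the others, because the bases used for it leave out its shorter tags. Its 21 nt tag, which had 146 reads in peak lactation, was left out in this way. Among all 11421 tags with at least 50 reads in 1 library, 16.8% were at least 2-fold higher and 48.6% at least 2-fold lower. The limit of 50 reads is a lower level in the deeper peak library, where 1 read was worth 0.0525 RPM against 0.135 RPM in the late library. It therefore lets in tags that are high at peak more easily, and these shares lean towards lower.

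miR-15a had a different leading tag in each library, as had miR-497. The forms of miR-15a are shown because their 3′ ends carry the difference.
24 nt: tAGCAGCAcataatggtttgtgga
23 nt, last base g: tAGCAGCAcataatggtttgtgg
22 nt: tAGCAGCAcataatggtttgtg
21 nt: tAGCAGCAcataatggtttgt
23 nt, last base a: tAGCAGCAcataatggtttgtga
The 24 nt tag led in peak lactation with 1208 reads (57.5% of the member) and had 181 reads (5.96%) at late lactation (log2 ratio -1.37, -1.61 to -1.15). The 23 nt tag that ends in g had 601 and 162 reads (log2 ratio -0.52, -0.78 to -0.27). The shorter tags went the other way. The 21 nt tag led in late lactation with 1141 reads (37.6%) against 54 reads (2.57%) in peak lactation (log2 ratio 5.77, 5.37 to 6.19). The 22 nt tag had 83 and 626 reads (log2 ratio 4.28, 3.95 to 4.63). The 23 nt tag that ends in a had 8 and 436 reads (log2 ratio 7.13, 6.14 to 8.36). The forms of miR-15a thus differed in direction, beside a ratio of 3.72 for the member as a whole.

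By length, tags of 23 or 24 nt held 88.8% of the miR-15a reads at peak (95% interval 87.3 to 90.1) and 32.1% in late lactation (30.5 to 33.8). The 21 nt tags held 2.62% and 38.7%. The mean length up to 30 nt was 23.5 nt at peak and 21.9 nt in late lactation. All clean reads had means of 22.2 nt and 21.6 nt over the same lengths, and their tags of 23 or 24 nt went from 24.4% to 17.6%.

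miR-195 shifted in the opposite direction, towards longer tags. These are its main forms.
20 nt: tAGCAGCAcagaaatgttgg
21 nt: tAGCAGCAcagaaatgttggt
22 nt: tAGCAGCAcagaaatgttggta
23 nt: tAGCAGCAcagaaatgttggtaa
The 20 nt tag had 336 reads at peak and 93 at late lactation (log2 ratio -0.49, -0.83 to -0.15). The 21 nt tag led both libraries with 587 and 1021 reads (log2 ratio 2.17, 2.02 to 2.31). The 22 nt tag had 324 and 992 reads (log2 ratio 2.98, 2.80 to 3.17). The 23 nt tag had 5 and 385 reads (log2 ratio 7.63, 6.40 to 9.26), so that the ratio was larger at each further base. Tags of 20 nt or less made up 25.7% of miR-195 at peak (23.4 to 28.2) and 4.06% in late lactation (3.38 to 4.83), while tags of 23 or 24 nt made up 1.94% and 23.1%. In all clean reads the short class went up and the long class went down, so miR-195 moved against the whole library in both.

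**Figure D3:**
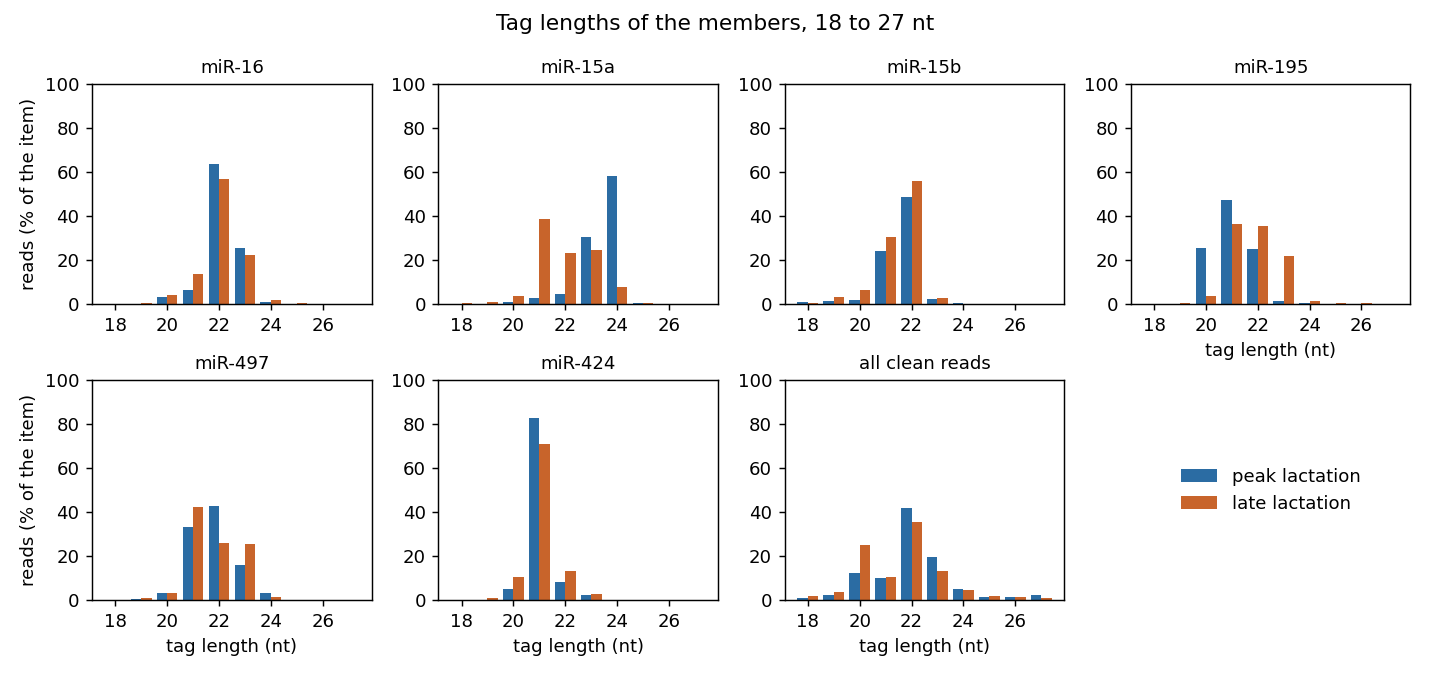
Share of reads by tag length (18 to 27 nt) for each member and for all clean reads, in peak and late lactation, with miR-15b counted by nt 2 to 17. The highest bar of miR-15a is at 24 nt at peak and at 21 nt in late lactation, while miR-195 gains bars at 22 and 23 nt and loses the one at 20 nt.

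The other members kept their main length or changed less. In miR-16, 21 nt tags went from 6.57% to 13.8%, 22 nt tags from 63.7% to 56.7%, and tags of 23 or 24 nt from 26.1% to 23.9%. miR-424 was mostly 21 nt long, with 82.6% of its reads at peak and 70.9% in late lactation. In miR-497, 22 nt tags went from 42.8% to 25.9% and 21 nt tags from 33.4% to 42.2%. Its commonest length thus changed from 22 nt to 21 nt. In miR-15b, counted by nt 2 to 17, 22 nt tags held 48.5% and 55.9% and 21 nt tags 24.02% and 30.4%. These shares are of all its reads, of which tags of over 30 nt were 20.4% at peak and 0.2% in late lactation. Those long tags lower the peak shares of the other lengths, so the rise at 21 and 22 nt cannot be read as a shift in length. Up to 30 nt its mean length was 21.59 nt at peak and 21.51 nt in late lactation.

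Taken within one length, the ratios of the members spread further apart. At 22 nt the log2 ratio was 4.31 for miR-15a, 3.28 for miR-15b, 3.03 for miR-195, 2.04 for miR-424, 1.29 for miR-497 and 0.10 for miR-16, while all 22 nt reads had -0.23. At 21 nt, miR-16 was past 2-fold too, with a log2 ratio of 1.34 (1.29 to 1.40), and miR-15a was at 5.78 (5.39 to 6.20). At 24 nt, miR-15a was at -1.06 (-1.27 to -0.85) and miR-195 at 3.76 (2.65 to 5.06). miR-15b, counted by nt 2 to 17, was at 4.31 (3.72 to 4.96) at 20 nt or less, 3.42 at 21 nt, 3.28 (3.10 to 3.47) at 22 nt and 3.42 at 23 nt, and at 24 nt it had 3 reads in each library.

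**Figure D4:**
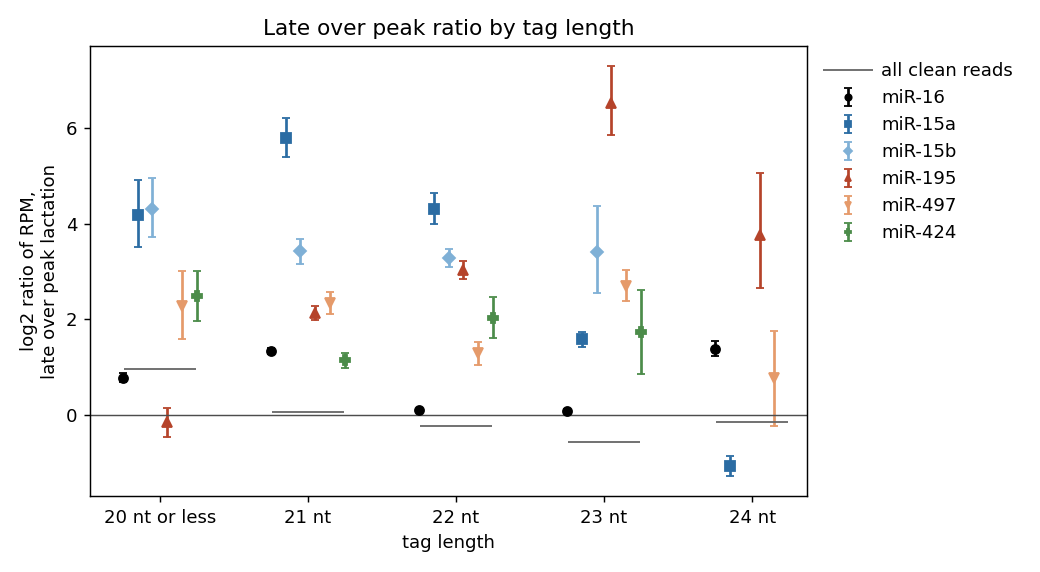
Log2 ratio of RPM, late over peak lactation, by tag length for each member, with 95% counting intervals, where both libraries together had at least 20 reads; grey dashes are all clean reads of that length. miR-15a falls from 5.78 at 21 nt to -1.06 at 24 nt, miR-195 rises from -0.15 at 20 nt or less to 6.52 at 23 nt, and miR-16 stays between 0.08 and 1.39.

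The forms with 1 more base than the most abundant 22 nt tag showed which bases were at the end. The 22 nt tag of miR-195 was followed by a in 1.54 reads per 100 reads of the 22 nt tag at peak and 38.8 in late lactation, and by t in 2.47 and 20.6. For miR-497 the tags with a added went from 13.3 to 58.4 per 100 and those with t added from 2.21 to 34.4, while those with g added went from 24.4 to 11.2. For miR-15a, a added went from 9.64 to 69.6 per 100 and g added from 724 to 25.9. For miR-16, a added went from 37.3 to 28.9 per 100 and t added from 1.87 to 5.74. For miR-15b and miR-424, a added went from 3.39 to 2.01 and from 19.2 to 12.7 per 100, on 10 to 22 reads in each library. Tags with a added were thus higher per 100 in late lactation in 3 of 6 members and lower in 3. Over the 166 tags of 22 nt with at least 500 reads in both libraries, the median for an added a was 5.26 per 100 at peak and 6.59 in late lactation, with 87 tags higher and 76 lower. Of the members, only the 22 nt tag of miR-16 reached 500 reads in both libraries. Tags with t added were higher per 100 in late lactation in 4 members and lower in 2, while of the 166 tags 60 were higher and 94 lower. Whether an added base is in the genome or was added later was not examined, as no genome was used.

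miR-497 showed the same split in its 23 nt tags, and they are given because they differ only in the last base.
last base g: cAGCAGCAcactgtggtttgtag
last base a: cAGCAGCAcactgtggtttgtaa
last base t: cAGCAGCAcactgtggtttgtat
The tag ending in g had 66 reads at peak and 28 at late lactation (log2 ratio 0.13, -0.56 to 0.79). The tag ending in a had 36 and 146 reads (log2 ratio 3.39, 2.85 to 3.96). The tag ending in t had 6 and 86 reads (log2 ratio 5.21, 4.03 to 6.69).

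miR-16 was found with more than 1 base at nt 21, and the leading tag of each form in peak lactation is shown with the seed in capitals.
nt 21 a: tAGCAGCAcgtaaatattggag
nt 21 g: tAGCAGCAcgtaaatattgggg
nt 21 c: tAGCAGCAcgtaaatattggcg
Among tags that begin with nt 1 to 20 of miR-16, those with a had 74780 reads at peak and 30742 in late lactation, 92.7% and 82.8%, with a log2 ratio of 0.08 (0.06 to 0.10). Those with g had 2859 and 4771 reads, 3.55% and 12.8%, with a log2 ratio of 2.11 (2.04 to 2.17). Those with c had 537 and 20 reads, 0.666% and 0.0539%, with a log2 ratio of -3.38 (-4.10 to -2.74). Tags that stop at nt 20 had 2445 and 1579 reads (log2 ratio 0.74, 0.64 to 0.83). The form with g was thus at least 2-fold higher and the form with c at least 2-fold lower, beside an almost equal form with a. Among tags that begin at nt 1 and reach nt 21, the form with a held 95.6% of miR-16 at peak and 86.5% in late lactation. On this basis the commonest base at nt 21 held 95.6% to 99.8% in the other 5 members in each library, so miR-16 lay outside their range in late lactation and not at peak.

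The 5′ end of the members was nearly fixed, and 95.3% to 99.6% of the reads of each member (by nt 2 to 17) began at nt 1. Tags with 1 base before nt 1 were few in peak lactation, with 29 reads of miR-16, 1 of miR-15a, 2 of miR-424 and 0 of miR-15b, miR-195 and miR-497. In late lactation they had 458 reads of miR-16 (1.20%), 61 of miR-15a (2.01%), 47 of miR-15b (2.35%), 52 of miR-195 (1.76%), 17 of miR-497 (1.53%) and 8 of miR-424 (0.877%). All 6 members thus had a larger share of such tags in the late library, as had the start of miR-103 and miR-107. An added 5′ base moves the seed by 1 position. The share of 5′ adaptor contaminants was also larger in the late library (14.0% against 0.0494%), and its part in these tags was not tested.

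miR-15b was the member most touched by tags of over 30 nt, which is longer than the RNA cut from the gel. By nt 2 to 17 they were 125 of its 612 reads at peak (20.4%) and 4 of 2004 in late lactation. Of these, 50 reads at peak and 0 in late lactation came from 1 tag of 44 nt. The parts into which it can be divided were each tags of their own.
first part, 21 nt: tAGCAGCAcatcatggtttac
second part, 23 nt: caaagtgctgttcgtgcaggtag
The second part had 13060 reads of its own in peak lactation. Another tag of 44 nt, with 24 reads at peak and 0 in late lactation, joined the 22 nt tag of miR-15b to a tag with 726604 reads. In the other members tags of over 30 nt were 0.217% to 2.66% of the peak reads. Without them the log2 ratio of miR-15b, counted by nt 7 to 22, was 3.27 (3.09 to 3.46) against 3.03 with them. A count of 0 allows up to 3 reads, which is 0.158 RPM at peak and 0.406 RPM in late lactation.

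Tags that pair most strongly with each leading tag were sought among 21377 tags of 20 to 24 nt with at least 10 reads, by computed pairing energy. These tags have no names in the files and are candidates for the other strand of the hairpin by pairing alone.
pairs with miR-16: tccagtattaactgtgctgctga
pairs with miR-195: ccaatattggctgtgctgctcc
pairs with miR-424: caaaacgtgaggcgctgctata
pairs with miR-497: ccaaaccacactgtggtgttgg
The energies were -26.9 kcal/mol for miR-16 (the next tag at -24.3), -26.9 for miR-195 (next -26.5), -23.4 for miR-424 (next -20.9) and -27.2 for miR-497 (next -25.7), so that for miR-195 another tag paired almost as strongly. Tags that hold nt 2 to 17 of these sequences were rare in both libraries. For miR-16 they had 53 reads at peak and 36 at late lactation (log2 ratio 0.81, 0.16 to 1.45). For miR-195 they had 73 and 44 reads (log2 ratio 0.64, 0.06 to 1.20). For miR-424 they had 29 and 15 reads (log2 ratio 0.42, -0.59 to 1.36), and for miR-497 79 and 33 reads (log2 ratio 0.11, -0.53 to 0.71). None of these 4 was past 2-fold, while miR-195, miR-424 and miR-497 themselves were. The reads were few, and the intervals of the pairing tags of miR-16, miR-195 and miR-424 included 2-fold. For miR-424 the interval of the pairing tag (-0.59 to 1.36) overlapped that of the member (1.23 to 1.50), so a difference between them is not shown. The reads of the member for each read of its pairing tag went from 18.3 to 67.2 for miR-195, from 8.99 to 33.7 for miR-497, from 31.6 to 60.8 for miR-424 and from 1538 to 1060 for miR-16. For miR-15a and miR-15b the strongest energies were weaker, at -19.3 and -19.8 kcal/mol (next -19.0 and -18.5), and their tags are not printed. For miR-15a it was the tag that pairs with miR-497. For miR-15b the tag had 1954 reads at peak and 262 at late lactation (log2 ratio -1.53, -1.72 to -1.35), past 2-fold lower, and the reads of miR-15b for each of its reads went from 0.188 to 4.44.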

How the data were processed

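Small RNA of the mammary gland was sequenced in 1 library of peak lactation and 1 of late lactation, each from pooled RNA of 5 goats. The authors removed low-quality reads, trimmed adaptors, dropped reads under 18 nt and collapsed identical reads, and they deposited the counts of reads per tag, not normalized, with the counts left at each filtering step. The sources used here give no tool version for these filtering steps.

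Counts were joined by sequence, summed over the tags of each member and divided by the clean reads (19044002 and 7385833). Ratios are late over peak lactation. With 1 library per stage, a ratio of at least 2-fold was the call, and neither edgeR nor DESeq2 was used for a test. The ratio and its interval were run on simulated counts with Poisson counting error only. This checked the calculation and says nothing about variation between goats, libraries or PCR copies. For background groups a level of 0 was set to 0.01 RPM, and a count of 0 was taken to allow up to 3 reads (0.158 RPM in peak and 0.406 RPM in late lactation). For counts of single tags with at least 50 reads, 0.5 reads were added. The members and lists were chosen with earlier results of these data known. The tags named in the text were, for each member, the 3 most abundant of each library and, with at least 50 reads, those farthest from the ratio of the member in each direction. The forms of miR-16 at nt 21, the added 3′ bases, the joined tags and the pairing tags were chosen after their values were seen.

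No mature sequences were used, so the planned background of known miRNAs was replaced by groups of tags with the same nt 2 to 17, and the listed passenger strands, miR-503, miR-542, miR-450, the miR-17-92 clusters and cell type markers were not analysed here. Alternatives were TMM factors (edgeR 4.0.16), median-ratio factors (DESeq2 1.42.0), other totals, other windows, limits on tag length and reads, and other filters on groups. Pairing energies came from RNAduplex 2.7.2, intervals from scipy 1.17.1 in Python 3.11.15 (with pandas 2.3.3 and numpy 2.4.6), factors from R 4.3.3 and figures from matplotlib 3.10.9.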

Additional observations from a re-analysis of the deposited data

How the results depend on the processing

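The settings with the most abundant tag alone and with tags of at most 30 nt were chosen after seeing the data. Of 144 values recomputed under other settings, 136 kept their direction and their side of 2-fold, or a like size. These are not 144 separate checks, because a change of scaling shifts every log2 ratio alike and the clusters and the family sum the same reads. miR-16 turned from 0.27 to -0.043 with its most abundant tag alone and to -0.057 with nt 7 to 22, a window that its 21 nt tags and its tags with g at nt 21 cannot hold. With that window for miR-16 the cluster of miR-15b and miR-16 was at -0.0018. Over all settings the log2 ratios ranged from 1.86 to 5.77 for miR-15a (5.77 with the most abundant tag alone), 3.01 to 3.27 for miR-15b, 2.17 to 2.60 for miR-195, 1.12 to 1.45 for miR-424 and 1.96 to 2.42 for miR-497. The other scalings moved every log2 ratio by -0.03 to 0.09. The number of groups at least 2-fold higher in late lactation (4193) was 141519 of 403023 without a filter, 710 of 2809 from 10 RPM and 9978 of 20421 with totals without the 10 most abundant tags, and the number lower (3622) was 249575 without a filter and 1050 from 10 RPM. The filters change how many groups are counted, and the cause was not tested further. Scaling to known miRNAs and the tag identical to a mature sequence were not run, since no table of mature sequences was used, and nt 7 to 22 could be tried only for miR-16, as the leading tags of the other members counted by nt 2 to 17 are 21 nt long. Leaving out a replicate was not possible with 1 library per stage. No paired analysis was possible because each stage has 1 library. The pool hides the variation between goats, and the depth limits rare tags, where 3 reads are 0.158 RPM in peak and 0.406 RPM in late lactation.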
